A study of Mus musculus with 14 samples.

Results

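Globin and red cell genes were examined in whole fetal brains of mice with and without the type 3 deiodinase (DIO3), the enzyme that inactivates thyroid hormones. The set holds 9 of the 41934 genes in the deposited tables, picked by symbol: the embryonic globins Hba-x, Hbb-y and Hbb-bh1, the adult globins Hba-a1, Hba-a2, Hbb-bs and Hbb-bt, the heme synthesis gene Alas2 and the red cell anion exchanger Slc4a1. Each symbol belonged to 1 row. RNA was sequenced from individual male fetuses on a C57BL/6J background, in 4 groups. The E13.5 group of wild type (Dio3+/+) held 4 fetuses and that of Dio3-/- held 2, and the E18.5 groups held 3 and 5. Litters came from matings of Dio3+/- mice, so every mother was heterozygous, and Dio3-/- fetuses lacked the enzyme in all tissues, not in the brain alone. The tables give 1 comparison per age, with a mean normalized count over both genotypes, the log2 of the ratio of Dio3-/- to Dio3+/+ (the log2 fold change), its standard error (SE) and a Wald p. Values of single libraries are not in these tables, so the depth and the spread of each group are unknown here and the SE is the measure of error.

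Hemoglobin is built from alpha-like and beta-like globin chains, each carrying a heme group. In the mouse, primitive red cells from the yolk sac make embryonic chains, and definitive red cells from the fetal liver make adult chains and replace them in the blood as gestation proceeds. Neurons and glia are not the main source of these transcripts, so that in a whole brain most of the globin RNA is usually taken to be that of blood held in the vessels. In bulk RNA, fewer red cells and less RNA per red cell cannot be told apart. Nor can a transcript be assigned to primitive or definitive cells, so shares of chains are not shares of cells.

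Of the 9 genes, 4 were called lower in Dio3-/- brains (adjusted p under 0.05) at E13.5, against 2.32% of all genes tested. They were Hba-a1, Hba-a2, Hbb-bt and Alas2. At E18.5, 2 were called lower, Hba-a1 and Hbb-bt, against 0.415% of all genes tested. When a t distribution replaced the normal distribution, none of these calls held. Of all genes, 0 passed at E13.5 and 1 at E18.5 with that setting, so it could call almost no gene. All 4 adult globins had a negative fold change at both ages, and no member was called higher at either. The 3 embryonic globins had fold changes near -0.2 at E13.5 with intervals that included 0, and Slc4a1 showed no fall at either age.

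The alpha-like genes lie together on chromosome 11 and the beta-like genes on chromosome 7, each cluster on 1 strand. In GRCm38, Hba-x lay at chr11:32276400-32278116, Hba-a1 at chr11:32283511-32284465 and Hba-a2 at chr11:32296489-32297298, all on the plus strand. Hbb-bt lay at chr7:103812524-103813996, Hbb-bs at chr7:103826534-103828096, Hbb-bh1 at chr7:103841637-103843164 and Hbb-y at chr7:103851749-103853216, all on the minus strand. Alas2 lay at chrX:150547375-150570638 on the plus strand and Slc4a1 at chr11:102348824-102366203 on the minus strand. Each globin transcript had 3 exons, against 11 in Alas2 and 20 in Slc4a1.

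RefSeq promoters of GRCm38.p6 were found for 7 members. The windows of Hba-a1, Hbb-bs and Hba-x lay inside the gene as the transcript annotation places it and are not shown. The 4 upstream sequences shown, of Hba-a2, Hbb-bt, Hbb-y and Alas2, are those that reached before the gene in both annotations. Each runs 5′ to 3′ on the strand of its gene, ends before the start of the gene in both annotations, and has in capitals each match to any of 4 motifs. The motifs were searched on both strands: CCAAT, a box found in many promoters, CACCC, the box bound by KLF1 and its relatives, TATAA, the core of the TATA box, and AGATAA, a motif of the GATA factors. They are chr11:32296342-32296488 (plus) for Hba-a2, chr7:103813997-103814073 (minus) for Hbb-bt, chr7:103853217-103853357 (minus) for Hbb-y and chrX:150547267-150547374 (plus) for Alas2.
Hba-a2: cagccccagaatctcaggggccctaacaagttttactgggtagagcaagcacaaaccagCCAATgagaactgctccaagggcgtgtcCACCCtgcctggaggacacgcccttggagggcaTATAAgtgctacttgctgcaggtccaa
Hbb-bt: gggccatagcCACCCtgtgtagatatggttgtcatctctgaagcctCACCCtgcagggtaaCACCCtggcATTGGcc
Hbb-y: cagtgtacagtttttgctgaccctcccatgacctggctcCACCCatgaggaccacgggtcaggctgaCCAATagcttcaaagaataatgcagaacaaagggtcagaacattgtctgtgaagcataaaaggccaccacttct
Alas2: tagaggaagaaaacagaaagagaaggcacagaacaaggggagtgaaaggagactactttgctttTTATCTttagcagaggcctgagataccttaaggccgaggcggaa

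Over the 150 bases before the RefSeq start, CACCC was present on either strand in 7 of the 7 members, against 37.4% of 32851 RefSeq promoters. CCAAT was present in 5 of 7, all of them globins, against 24.5% of promoters. TATAA was found in 5 of 7 against 14.2%, and AGATAA in 1 of 7, Alas2, against 5.65%. In Hbb-bt a CCAAT box on each strand stood side by side without sharing a base, and CACCC occurred at 3 places. The upstream windows of Hba-a1 and Hba-a2 shared an identical stretch of 147 bases out of 150, whereas the longest stretch shared by Hbb-bs and Hbb-bt was 14. The Hbb-y window held the CCAAT and the CACCC box as the adult globins did, and lacked the TATAA that all 4 of these had. These matches are descriptions of letters and not measured binding sites.

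The copies within each pair of adult globins share much of their sequence, which limits what reads of 75 bases can tell. Of the 75-base windows of the Hba-a2 transcript, 81.0% also occurred in Hba-a1, and 62.2% of the Hba-a1 windows occurred in Hba-a2. The shares were 64.3% for Hbb-bs and 56.6% for Hbb-bt, each with the other. Reads from such stretches map to more than one place and are left out by the counter's default, so the counts of these 4 genes rest on the remaining windows, 91 of 480 in Hba-a2 at the least. Hba-x, Hbb-y, Hbb-bh1 and Slc4a1 shared no 75-base window with another gene. Alas2 shared 12.1% of its windows with Apex2, a DNA repair gene that overlaps it on the opposite strand. Counting in union mode did not use strand, so reads from this overlap fit both genes and are counted for neither. Apex2 itself had a log2 fold change of -0.02 ± 0.09 (SE; adjusted p = 0.974) at E13.5 and -0.08 ± 0.10 (adjusted p = 0.977) at E18.5.

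**Figure D1:**
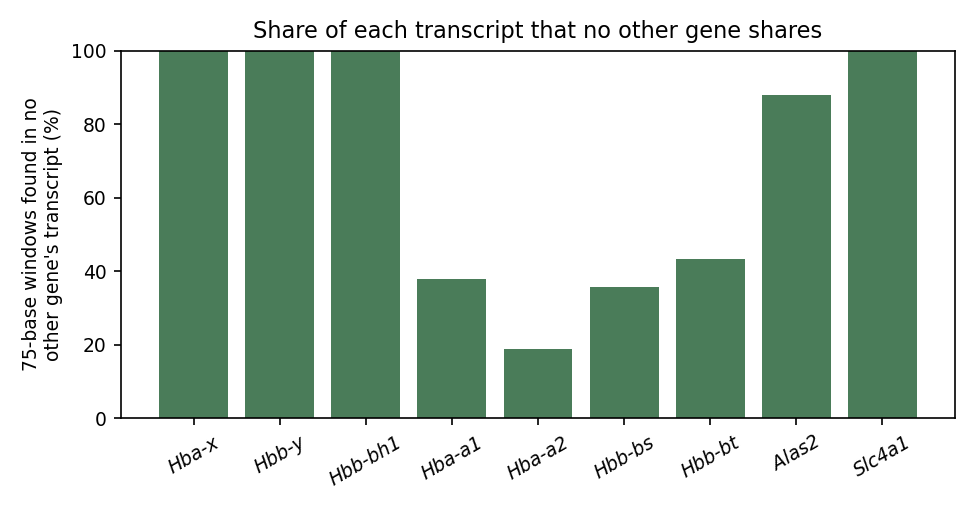
Share of the 75-base windows of each transcript that occur in no other gene's transcript, in percent, 1 bar per gene, from the reference transcripts. The 4 adult globins have the least sequence of their own, between 19.0% (Hba-a2) and 43.4% (Hbb-bt), and Alas2 has 87.9%.

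At E13.5 the embryonic beta-like gene Hbb-y was the leading member, with a mean normalized count of 21476, the 79th highest of all genes. Per kb of transcript, its mean normalized count was 33927. Hba-x, the embryonic alpha-like gene, followed at 6260 per kb. Both were above every adult globin on this scale. Hba-a1 stood at 3882, Hbb-bs at 3630, Hba-a2 at 2628 and Hbb-bt at 2353 per kb. The third embryonic gene, Hbb-bh1, was far lower at 486 per kb. Alas2, which makes the first and rate-limiting enzyme of erythroid heme synthesis, was at 227 per kb and Slc4a1 (band 3) at 208. Without library values, neighbours in this order such as Hba-a1 and Hbb-bs, or Alas2 and Slc4a1, cannot be said to differ. Counts per kb understate the adult globins, since their shared stretches give no reads. Per 1000 windows of their own, a scale chosen after the data were seen, Hba-a2 stood at 15999, Hbb-bs at 11514 and Hba-a1 at 11497, all above Hba-x at 6897 and below Hbb-y at 38419, while Hbb-bt stood below Hba-x at 6059.

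At E18.5 the order had changed. Hbb-bs led with 2570 per kb, followed by Hba-a1 at 1305, Hba-a2 at 897 and Hbb-bt at 702. Alas2 was at 133 and Slc4a1 at 21.2 per kb. The embryonic genes were last, with mean normalized counts of 7.95 for Hbb-y, 5.03 for Hba-x and 0.132 for Hbb-bh1 over 8 libraries. The last of these is about 1 read in all libraries together, too few for any statement on genotype. Because the tables were normalized separately, the levels of both ages are only set side by side, with no test between them.

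**Figure D2:**
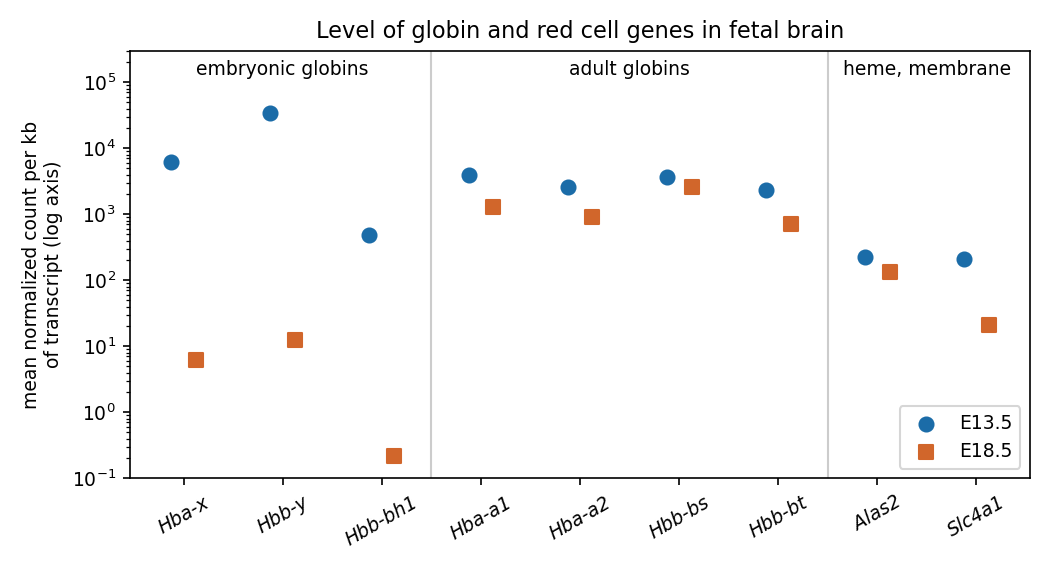
Mean normalized count per kb of transcript of each member (log axis) at E13.5 (circles) and E18.5 (squares), each a mean over both genotypes without an error, since no library values are in the tables. The embryonic globins stand at 486 to 33927 at E13.5 and at 0.215 to 12.6 at E18.5, while the adult globins stand between 702 and 3882 at both ages.

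Shares within an age do not depend on the normalization between ages. Embryonic genes made up 85.2% of the beta-like signal per kb at E13.5 and 0.389% at E18.5. Of the alpha-like signal they made up 49.0% at E13.5 and 0.284% at E18.5. Per window of a gene's own, the embryonic shares at E13.5 were lower, at 68.9% for beta-like and 20.1% for alpha-like signal, and at E18.5 they were 0.145% and 0.0742%. The 7 globins together held 0.122% of the normalized counts of all genes at E13.5 and 0.0144% at E18.5. For each genotype a mean can be approximated from the mean count and the fold change. On that basis the embryonic share at E13.5 was 84.1% of beta-like signal in Dio3+/+ and 87.8% in Dio3-/-, and 47.7% and 52.4% of alpha-like signal, with no error that the tables allow.

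**Figure D3:**
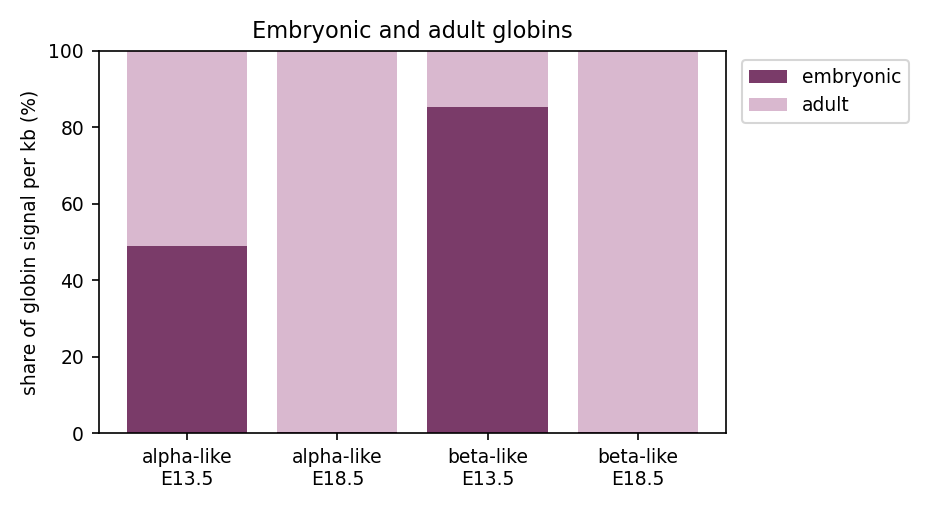
Share of the alpha-like and beta-like globin signal per kb of transcript (percent) held by embryonic and by adult genes at each age, over both genotypes. The embryonic share is 49.0% (alpha-like) and 85.2% (beta-like) at E13.5 and too small to see at E18.5 (0.284% and 0.389%), and per window of a gene's own the E13.5 shares would be 20.1% and 68.9%.

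The targeted gene was looked at first in the genotype comparison. Dio3-/- mice carry an inactivating point mutation and still transcribe the gene, so its RNA does not check the labels. Dio3 had a log2 fold change of -0.89 ± 0.23 (SE; adjusted p = 0.00584, Wald test with Benjamini-Hochberg adjustment) at E13.5 and of 1.10 ± 0.15 (adjusted p = 8.45e-10) at E18.5. Klf9, a gene that thyroid hormone induces, rose at both ages, by 0.76 ± 0.19 and 1.52 ± 0.07 on the log2 scale. It was chosen with its rise in this study already known, so it is not an independent check.

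At E13.5, of 16436 genes whose mean normalized count was 21.7 or more, an adjusted p under 0.05 was reached by 3.56%, and 2.32% were lower in Dio3-/-. Among the 9 members, all of which passed this filter, 4 were lower and none was higher. Hbb-bt, an adult beta chain gene, fell most among them, by 0.65 ± 0.14 on the log2 scale (95% interval -0.92 to -0.39; adjusted p = 0.000227), to 63.5% of the Dio3+/+ level. Its mean normalized count of 1654 corresponds to about 1883 in Dio3+/+ and 1196 in Dio3-/-. The adult alpha chain genes Hba-a1 and Hba-a2 fell by 0.45 ± 0.12 each, to 73.2% (adjusted p = 0.00734) and 73.0% (adjusted p = 0.00758). Alas2 fell by 0.50 ± 0.14 (adjusted p = 0.0171), to 70.9%. Hbb-bs, the other adult beta chain gene, had a fold change as large as that of Hbb-bt, -0.62, with an SE of 0.28, about 2 times that of Hbb-bt, and did not pass the test (adjusted p = 0.281).

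The embryonic globins did not pass the test at E13.5. Hbb-y and Hba-x had the highest counts of the 9 members and Hbb-bh1 the lowest, and all 3 were measured on sequence of their own. Hbb-y had a log2 fold change of -0.20 ± 0.18 (95% interval -0.55 to 0.15; adjusted p = 0.781). Hba-x stood at -0.18 ± 0.18 (-0.54 to 0.17; adjusted p = 0.821) and Hbb-bh1 at -0.18 ± 0.20 (-0.56 to 0.21; adjusted p = 0.858). These intervals reach from above 0 to below the fold changes of Hba-a1 and Hba-a2, but not as low as those of Hbb-bt and Hbb-bs. Whether embryonic and adult genes differed was not tested. Slc4a1 had a fold change of 0.01 ± 0.12 (-0.23 to 0.24; adjusted p = 0.989). Its interval does not include the fold changes of the 4 genes called lower, which have errors of their own. Whether Slc4a1 differed from these genes was not tested.

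At E18.5, 17607 genes had a mean normalized count of 13.8 or more, of which 1.37% reached an adjusted p under 0.05 and 0.415% were lower in Dio3-/-. Of the 9 members, 6 passed this filter, 2 fell and none rose. Hba-a1 fell by 0.38 ± 0.09 (95% interval -0.56 to -0.21; adjusted p = 0.0035), to 76.7% of the Dio3+/+ level, and Hbb-bt by 0.47 ± 0.12 (-0.70 to -0.23; adjusted p = 0.00942), to 72.4%. Hba-a2 at -0.33 ± 0.11 (adjusted p = 0.108) and Alas2 at -0.37 ± 0.12 (adjusted p = 0.127) had values near these and missed the adjusted threshold. Hbb-bs stood at -0.27 ± 0.15 (adjusted p = 0.667) and Slc4a1 at 0.21 ± 0.18 (adjusted p = 0.923). The embryonic globins were removed by the filter and have no adjusted p at this age.

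**Figure D4:**
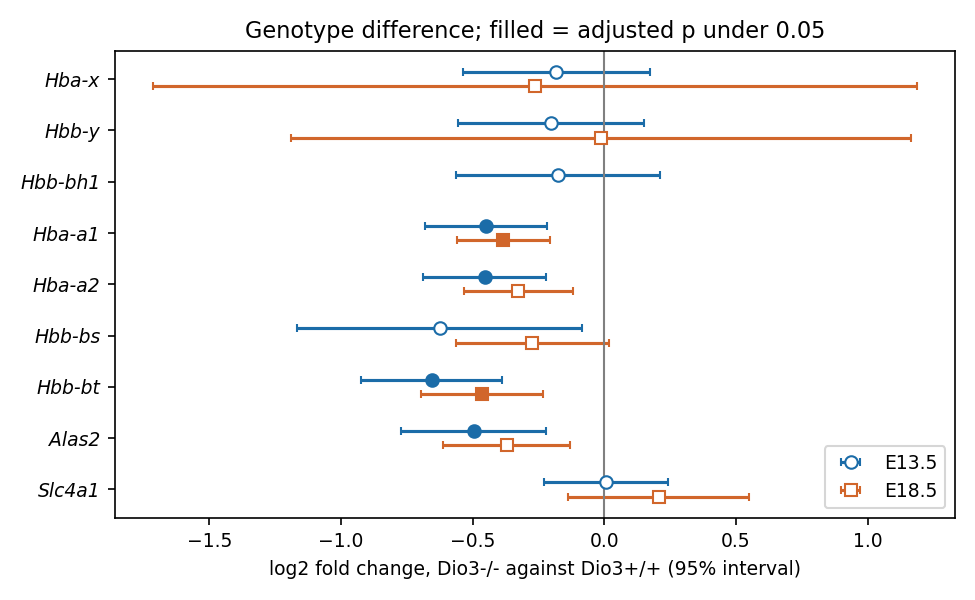
Log2 fold change of each member in Dio3-/- against Dio3+/+ with its 95% interval at E13.5 (circles) and E18.5 (squares), filled where the adjusted p is under 0.05. The adult globins and Alas2 lie between -0.65 and -0.27 at both ages, Slc4a1 lies at 0.01 and 0.21, and Hbb-bh1 at E18.5 is not drawn for lack of reads.

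The p-values compare few fetuses with a normal distribution, which is too narrow for so few. With a t distribution (4 degrees of freedom at E13.5 and 6 at E18.5) none of the 9 members reached an adjusted p under 0.05 at either age, and of all genes 0 did at E13.5 and 1 at E18.5. Unadjusted p under that distribution were 0.00871 and 0.00758 for Hbb-bt and 0.0188 and 0.00554 for Hba-a1 at E13.5 and E18.5.

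The ages share no library, and 12 genes fell with an adjusted p under 0.05 at both, Hba-a1 and Hbb-bt among them. At an unadjusted p under 0.01 at both ages, 27 of 29955 genes were lower in both (0.0901%), of which 4 were members: Hbb-bt, Hba-a1, Hba-a2 and Alas2. The others with the smallest p were Ptprz1, Celsr1, Pcdh19, Cdh4 and Plxnc1, genes of cell surface proteins of neural cells, and the telencephalon gene Emx2 also met the criterion. The members that met it span both globin clusters and the X chromosome.

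Whether the genotype difference itself changed with age was tested for 17793 genes, of which 1.95% passed an adjusted p under 0.05. Of the 6 members that could be tested, 0 passed, and 0 had an unadjusted p under 0.05. The log2 fold change at E18.5 minus that at E13.5 was 0.07 ± 0.15 for Hba-a1, 0.13 ± 0.16 for Hba-a2, 0.19 ± 0.18 for Hbb-bt, 0.35 ± 0.31 for Hbb-bs, 0.13 ± 0.19 for Alas2 and 0.20 ± 0.21 for Slc4a1, with adjusted p of 0.825 to 0.958. These SEs leave room for differences of about the size of the fold changes themselves.

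Other genes of the red cell were taken from lists and are described by their counts and medians, without a test against the members. Some list genes with low counts were removed by the filter and have no adjusted p, so they could not pass. Among 12 other genes of heme synthesis and mitochondrial iron, 11 had a negative fold change at E13.5 with a median of -0.05, and 0 passed the test. At E18.5, 5 of these 12 were negative with a median of 0.03, and again 0 passed. Alas2 was the one gene of this list that passed the test at E13.5. No gene of it passed at E18.5, where Alas2 stood at -0.37 ± 0.12 (adjusted p = 0.127). Over all genes at a mean normalized count of 10 or more, the limit for every list, 9598 of 18655 were negative at E13.5 with a median of -0.01 on this scale, and 9163 of 18600 at E18.5 with a median of 0.00.

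Genes of the red cell membrane and its skeleton, Slc4a1 left out, were negative in 10 of 18 at E13.5 (median -0.04) and in 7 of 13 at E18.5 (median -0.03). Sptb, which encodes a beta spectrin that neurons also make, rose at E13.5 by 0.49 ± 0.12 (adjusted p = 0.00209) and stood at 0.10 ± 0.06 (adjusted p = 0.717) at E18.5. Of 16 measured genes of iron uptake and late red cell maturation, 14 were negative at E13.5 (median -0.08), none of which passed the test. At E18.5, 7 of 16 were negative (median 0.02), and Tent5c, a poly(A) polymerase gene, fell by 0.50 ± 0.14 (adjusted p = 0.0234). Tent5c had been at -0.13 ± 0.09 (adjusted p = 0.681) at E13.5. Many genes of these lists are also expressed by brain cells, so their levels are not those of red cells alone.

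Transcription factors of the lineage differed widely in level. Gata1 and Klf1, which drive red cell genes, had low mean normalized counts of 13.4 and 23.1 at E13.5 and of 2.36 and 7.77 at E18.5. Of 9 factors measured at E13.5, 3 were negative (median 0.14), and of 7 at E18.5, 5 were negative (median -0.08). None passed the test, though factors removed by the filter, Gata1 at E13.5 among them, were not tested. Those with the smallest p were Myb (-0.45 ± 0.15, adjusted p = 0.0714) and Gata2 (0.33 ± 0.12, adjusted p = 0.114) at E13.5, and Myb (0.26 ± 0.14, adjusted p = 0.675) and Lmo2 (-0.16 ± 0.09, adjusted p = 0.70) at E18.5. The genes next to the alpha cluster, which include its distal enhancer host Nprl3, were negative in 3 of 5 at E13.5 (median -0.01) and in 5 of 5 at E18.5 (median -0.11). Of these neighbours, Rhbdf1 at -0.29 ± 0.09 (adjusted p = 0.0722) and Sh3pxd2b at -0.11 ± 0.04 (adjusted p = 0.186) had the smallest p at E18.5, and Sh3pxd2b (0.10 ± 0.06) and Mpg (0.25 ± 0.16) at E13.5.

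In the lists for other cells of blood and vessels, no gene was called lower at either age. A missing call does not show that a gene did not fall. At E13.5, platelet genes were negative in 1 of 8 (median 0.15), leukocyte genes in 1 of 6 (median 0.20), macrophage and microglia genes in 1 of 10 (median 0.23) and endothelial genes in 1 of 11 (median 0.06), and none of these passed the test. The examples with the smallest p were Ppbp (0.48 ± 0.33) and Itga2b (0.20 ± 0.23) for platelets, Ptprc (0.39 ± 0.24) and Coro1a (-0.12 ± 0.09) for leukocytes, and Mrc1 (0.43 ± 0.15) and Csf1r (0.30 ± 0.12) for macrophages, with adjusted p of 0.0819 or more. At E18.5, macrophage genes were negative in 1 of 10 (median 0.16) and endothelial genes in 4 of 12 (median 0.05). The endothelial genes Flt1, a VEGF receptor, and Ly6c1 rose at E18.5 by 0.34 ± 0.07 (adjusted p = 0.000883) and 0.66 ± 0.16 (adjusted p = 0.0033). Among pericyte and smooth muscle genes, negative in 3 of 10 at E13.5 (median 0.20) and 6 of 9 at E18.5 (median -0.05), Acta2 rose at E13.5 by 1.06 ± 0.24 (adjusted p = 0.000833) and Rgs5 at E18.5 by 0.29 ± 0.04 (adjusted p = 9.39e-08).

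At E18.5 platelet genes were negative in 3 of 5 (median -0.14) and leukocyte genes in 1 of 3 (median 0.03). Gp9 (-3.84 ± 1.23, mean normalized count 2.41) and Gp1bb (-0.51 ± 0.39) had the smallest p of the platelet list, Ptprc (0.21 ± 0.19) and S100a9 (0.52 ± 0.59) of the leukocyte list, and C1qa (0.25 ± 0.11, adjusted p = 0.411) and C1qc (0.20 ± 0.10, adjusted p = 0.611) of the macrophage list. The filter removed Gp9 and S100a9 at E18.5, so they have no adjusted p. No gene of these 3 lists that kept an adjusted p passed the test at either age.

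**Figure D5:**
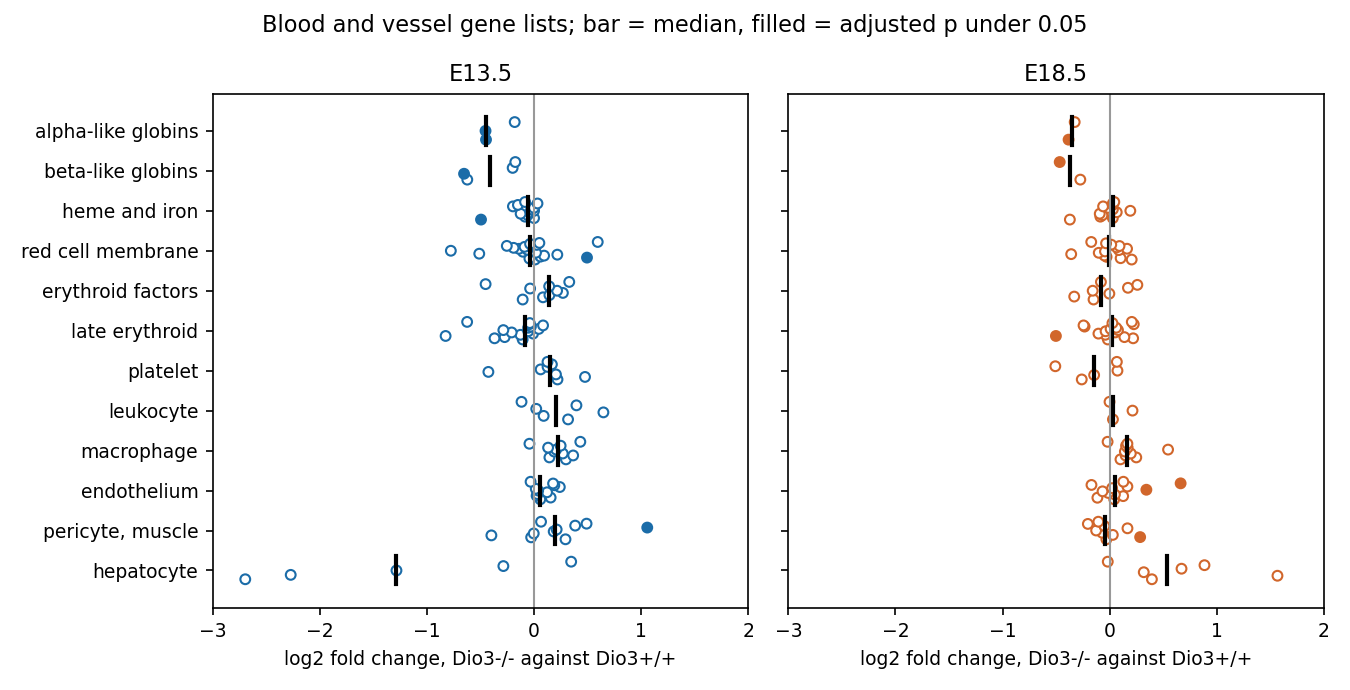
Log2 fold change in Dio3-/- against Dio3+/+ of each gene measured at a mean normalized count of 10 or more in 12 blood and vessel lists at E13.5 and E18.5. Each circle is a gene, filled where its adjusted p is under 0.05, and the black bar is the median of the list, -0.45 for alpha-like and -0.41 for beta-like globins at E13.5 and -0.35 and -0.37 at E18.5.

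Markers of brain regions and cord moved with genotype at E13.5, and liver genes were mostly negative without a call. The 9 telencephalon markers reported here fell (median -1.70, Tbr1 at -2.40 ± 0.41, adjusted p = 1.39e-06), and the 10 Hox genes of hindbrain and cord had positive fold changes (1.13 to 4.50, median 2.01), of which Hoxb2, Hoxb6, Hoxb8 and Hoxc6 rose. Hepatocyte and plasma protein genes, a sign of liver, were negative in 4 of 5 (median -1.29). Afp stood at -2.70 ± 0.98 (adjusted p = 0.117), Alb at -2.27 ± 0.94 (adjusted p = 0.221) and Serpina1a, with a mean normalized count of 6.73, at -5.66 ± 1.84. Their part in the E13.5 difference of the globins was not tested. At E18.5 the same lists stood at medians of -0.03 for telencephalon, 0.22 for Hox and 0.53 for hepatocyte genes (negative in 6 of 9, 1 of 10 and 1 of 6), with Alb at 1.57 ± 0.99 and Apoa2 at 0.67 ± 0.50. None of their genes passed the test, though genes removed by the filter, Apoa2 among them, were not tested.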

How the data were processed

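RNA of whole brains from 14 individual male fetuses, grouped by the age and genotype in the labels, was depleted of rRNA and sequenced in 2 batches, which differed in kit and instrument. The authors trimmed reads with Cutadapt 3.1, aligned them to GRCm38 with STAR 2.5.3a and GENCODE VM22, removed rRNA and tRNA with bedtools 2.26.0, counted in union mode, ignoring strand, with HTSeq, adjusted for batch with ComBat-seq and compared genotypes within each age with DESeq2 1.30.1 (R 4.0.3). Which library belonged to which batch is not given in the sources used here, so batch and genotype cannot be told apart. The adjustment can change fold changes and their errors.

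The mean normalized count deposited for each gene is a signal, the average of all libraries at that age. Fold changes and SEs were deposited as log2 values. The Wald score of the authors is their ratio. The deposited p-value is that of the Wald statistic, and the authors' own adjusted p-value served as an alternative. Columns of per-sample values left unused numbered 0.

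The filter on the mean was computed again (50 quantiles, first cutoff near the most adjusted p under 0.05), followed by Benjamini-Hochberg adjustment over the kept genes. Differences between ages were divided by their SE and compared with a normal distribution. Intervals are 95% normal intervals. Lists are described by counts and medians over genes at a mean normalized count of 10 or more. Scripts used Python 3.11.15, pandas 2.3.3, SciPy 1.17.1 and statsmodels 0.14.6 and were tested on simulated data. Genotype means are approximations from the mean count and the fold change. Transcripts and coordinates came from a GENCODE release of GRCm38 one older than the authors' own, promoters from RefSeq.

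Members and lists were chosen with earlier results of these data known. Named genes are the 9 members, Dio3, in each list the genes called at either age or otherwise those with the smallest p at each age, and genes lower at both ages with an unadjusted p under 0.01 (all in a list and 5 others). Klf9, Apex2, Gata1, Klf1 and Nprl3 were named outside this rule. A gene of the telencephalon list is not reported here, and the counts and medians of that list leave it out.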

Additional observations from a re-analysis of the deposited data

Results flagged for a closer look

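No member's genotype difference was found to differ between ages. Among the other genes named by the rule given with the processing, 14 differed between E13.5 and E18.5 with an adjusted p under 0.05. Genes named outside that rule are not in this count. Klf9, 1 of these, had a log2 fold change of 0.76 ± 0.19 at E13.5 and 1.52 ± 0.07 at E18.5. The log2 fold change at E18.5 minus that at E13.5 was 1.99 for Dio3, 0.71 for the progenitor factor Myb, -1.10 for the smooth muscle actin gene Acta2 and 0.27 for the protocadherin gene Pcdh19. For telencephalon markers it was 2.12 for Emx1, 0.55 for Emx2, 2.24 for Tbr1, 2.00 for Eomes, 1.79 for Dlx1, 1.88 for Dlx2, 1.66 for Lhx6 and 0.49 for Lhx2. For Hox genes it was -3.49 for Hoxb6 and -3.45 for Hoxc6.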

How the results depend on the processing

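The number of members called stayed at 4 at E13.5 and 2 at E18.5 with a minimum mean of 10, with no filter, with the median log2 fold change subtracted and with the authors' own adjustment, and was 3 and 2 with the Wald statistic scaled to unit spread in its centre, where Alas2 lost its call at E13.5. With a t distribution it was 0 at both ages, where 4 members at each age had an unadjusted p under 0.05 (5 and 4 under the normal distribution). Under the t distribution 0 of all genes passed at E13.5 and 1 at E18.5. The number of members differing between ages was 0 under every alternative tried. The embryonic share at E13.5 was 54.6% of alpha-like and 84.7% of beta-like signal per coding length, and 20.1% and 68.9% per window of a gene's own, a scale chosen after seeing the data. At E18.5 these were 0.356% and 0.382%, and 0.0742% and 0.145%. Alpha-like and beta-like levels thus depend on how shared sequence is treated. No member changed direction. No paired analysis was possible because the tables hold no values of single libraries, and leaving out replicates could not be run for the same reason.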
